A study of Mus musculus with 28 samples.

Results

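The 9 genes described here encode the 4 TCF/LEF transcription factors (Tcf7, Lef1, Tcf7l1 and Tcf7l2) and 5 of the cofactors that work with them at DNA, namely the co-activators Bcl9, Bcl9l and Pygo2 and the co-repressors Tle1 and Tle3. They were chosen by name for this role, and all 9 were among the 13519 genes whose reads had been counted. Colon organoids, which are cultures grown in gel from the epithelium of the mouse colon, had been sequenced from C57BL/6N mice of 4 genotypes. AC organoids carried VillinCreERT2 and APCflox/flox, PAC organoids carried in addition Trp53LSL-R172H/+, BAC organoids carried in addition BraffloxV600E/+, and BPAC organoids carried all of these alleles. Organoids were treated with 4-hydroxytamoxifen (4-HT, 3.5 µM for 24 hours), which activates the Cre recombinase, or with ethanol (EtOH) as the vehicle control, and RNA was isolated 3 days later. The EtOH and 4-HT samples with the same donor and duplicate in the labels are called a culture here. There were 28 samples from 14 cultures of 7 donor mice. AC had 1 donor, each of the others had 2, and 2 cultures, which per the study were different passages, were used per donor. Cultures 1 and 2 of a genotype are duplicates 1 and 2 of its first donor, and cultures 3 and 4 are those of its second donor.

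Several properties of the model bear on these genes. Cre is driven by the Villin promoter, so recombination is limited to epithelial cells, and all 4 genotypes carry the floxed Apc allele in both copies. The 4-HT and EtOH arms therefore differ in Apc in each genotype, and no genotype shows the Trp53 or Braf allele recombined without Apc. According to the methods, the organoid medium held Wnt3a, R-spondin-1 and an inhibitor of GSK3, each of which raises β-catenin, so the EtOH arm is not a state without Wnt signal. The ages of the mice are not given in the sources used here.

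In the Wnt pathway, the APC protein is part of the complex that marks β-catenin for degradation, and loss of APC lets β-catenin enter the nucleus. There it binds TCF/LEF proteins, which sit on DNA at Wnt target genes. Without β-catenin these factors are held by TLE co-repressors, and with it BCL9 or BCL9L bridges β-catenin to PYGO2, which helps to activate transcription. TCF7L2 (also called TCF4) is the member known for keeping the stem cells of the intestinal crypt, TCF7L1 (TCF3) is known mainly as a repressor, and TCF7 (TCF1) and LEF1 are best known from T cells and are also targets of the pathway.

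Treatment with 4-HT shifted the TCF/LEF family from Tcf7l2 towards Tcf7. Tcf7 rose 2.84-fold to 4.12-fold and passed the test in each genotype, in AC from 2 cultures of 1 donor. Lef1 rose 4.14-fold to 5.65-fold in PAC, BAC and BPAC. Tcf7l2 fell to between 0.470 and 0.575 of its EtOH level in the same 3 genotypes. Among the cofactors, Tle3 rose in PAC and BAC and Pygo2 rose in BAC, a Pygo2 call that was lost without culture 2 or culture 4. In PAC, 0 of the 9 genes passed without both duplicate 1 cultures, where 48 of all 13519 genes did. With 4-HT, BAC and BPAC held more Tle1 than AC and PAC did. They also held less Bcl9, a difference that was lost when any of 7 single cultures was left out. In bulk RNA a smaller number of cells of a type and less RNA per cell cannot be told apart.

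Sequencing depth and the identity of the samples were examined first. The counts on genes summed to 20577276 to 40068718 per sample. The highest sums, 37438687 to 40068718, were those of duplicate 1 in BAC and BPAC with 4-HT. The 2 PAC samples treated with 4-HT from duplicate 1 (cultures 1 and 3) each held both Xist reads (834 and 636 counts), which mark female cells, and reads of the Y-linked gene Ddx3y (456 and 374 counts). They came from 2 donors by their labels, yet their counts differed by only 1.85 times the counting noise, compared with 4.11 to 36.7 times for the 37 other pairs of samples within a group, so the edgeR calls of the 9 genes in PAC and between genotypes, and the counts for the gene lists in PAC, are given also without these cultures. The targeted genes were read as far as gene counts allow. Trp53 was at 51.4 to 66.1 CPM (counts scaled by library size and TMM factor) in EtOH-treated PAC and BPAC, where 1 copy is silenced by the stop cassette, and at 97.9 to 121.6 CPM in AC and BAC. After 4-HT, Trp53 was at 147.6 to 227.0 CPM in all genotypes. Apc was at 27.9 to 49.7 CPM with EtOH and at 51.4 to 73.8 CPM with 4-HT, and the deletion of its floxed part and the Braf V600E change are not visible in counts per gene.

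All 10 epithelial markers were counted, with summed levels of 19330 to 31020 CPM with EtOH and 17040 to 22200 CPM with 4-HT. Of these, 1 fell in AC, 3 in PAC and 5 each in BAC and BPAC, and 0 rose, where 4.25%, 12.2%, 21.5% and 23% of all genes fell in AC, PAC, BAC and BPAC. Krt20, a keratin of mature surface cells, had group means of 956.4 to 1464 CPM with EtOH and 275.8 to 340.8 CPM with 4-HT, and Vil1, the villin gene whose promoter drives Cre, had 930.0 to 1128 CPM and 585.5 to 627.0 CPM. The 6 goblet cell markers summed to 1319 to 2790 CPM with EtOH and 1252 to 1885 CPM with 4-HT, and they split. Tff3 and Fcgbp fell and Spdef and Agr2 rose in BAC and BPAC, and Spdef rose in PAC, so that 4 of 6 passed in BAC and BPAC against 41.9% and 45% of all genes. The 4-HT change differed with the Braf allele for Tff3 (-0.98, adjusted p = 0.00755) and Agr2 (0.83, adjusted p = 0.00564). In the fit without both duplicate 1 cultures of PAC, edgeR called 48 of all 13519 genes in PAC. Among them were 0 epithelial and 0 goblet markers (3 and 0 at an unadjusted p under 0.05). For the Braf allele and the 4-HT change that fit called 790 of all genes and 0 goblet markers (4 at an unadjusted p under 0.05). Of 10 lymphocyte markers only Cd3e and Lck were among the counted genes, at a summed 0.917 to 2.66 CPM with EtOH and 0.943 to 2.33 CPM with 4-HT, and neither passed a test of the 4-HT change (0 at an unadjusted p under 0.05). Of 10 fibroblast markers only Pdgfrb was counted, at 3.38 to 13.7 CPM with EtOH and 0.238 to 3.83 CPM with 4-HT. Of 5 endothelial markers 2 were counted, at a summed 1.99 to 6.13 CPM with EtOH and 1.03 to 3.41 CPM with 4-HT. The fibroblast and endothelial ranges, which overlapped between the arms, and the Krt20 and Vil1 means thus lay lower with 4-HT. Tcf7l2 also lay lower, with group means of 162 to 195.7 CPM with EtOH and 92.05 to 106.1 CPM with 4-HT. The part of these cell types in that result was not tested.

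The promoter windows are shown as a description, since Tcf7 and Lef1 rose and Tcf7l2 fell with 4-HT. RefSeq windows of GRCm38.p6, cut to the 250 bases before each annotated start, were found for 8 of the 9 genes (15 windows, none for Bcl9l). The TCF/LEF motif was searched on both strands as CTTTGAA or CTTTGAT, and as its 5-letter core CTTTG, which both longer forms contain. None of the 15 windows held the longer form, which occurs in 7.48% of the 32851 windows of all genes, and 8 held the core, which occurs in 48.6% of them. Some windows of the same gene overlap. Their GC content was 40.8% to 79.2%, against a median of 52.4% over all windows, and the shares of all windows are not matched for this. In the printed strands the core, read on either strand, is in capitals. Where a gene has several windows (4 for Lef1 with 1 to 3 cores each, 2 for Tcf7l2 with 1 each), the one nearest to the start of the gene in GENCODE is printed. This Lef1 window (chr3:131110073-131110322, plus strand) has the core at 2 places and this Tcf7l2 window (chr19:55741560-55741809, plus strand) at 1 place. The window next to the annotated start of Tcf7 held no core. It contains a start codon followed by 55 codons without a stop, and for this reason it is not printed as a promoter. A match or its absence in these windows says nothing about binding elsewhere.
Lef1: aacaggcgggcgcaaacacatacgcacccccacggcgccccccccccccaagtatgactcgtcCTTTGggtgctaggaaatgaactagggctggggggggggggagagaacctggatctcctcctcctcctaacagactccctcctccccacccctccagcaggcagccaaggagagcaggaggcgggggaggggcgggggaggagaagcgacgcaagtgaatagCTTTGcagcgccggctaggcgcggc
Tcf7l2: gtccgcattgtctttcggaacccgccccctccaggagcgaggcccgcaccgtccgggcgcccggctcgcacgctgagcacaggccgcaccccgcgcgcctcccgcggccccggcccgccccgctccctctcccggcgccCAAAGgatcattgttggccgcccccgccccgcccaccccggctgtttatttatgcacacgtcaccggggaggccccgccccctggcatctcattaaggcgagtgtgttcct

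Tcf7 (ENSMUSG00000000782) is encoded at GRCm38 chromosome 11, positions 52252371 to 52283014 (minus strand). With EtOH it was at 8.45 and 10.6 CPM in the AC cultures, at 10.1, 10.2, 9.70 and 10.2 CPM in PAC cultures 1 to 4, at 10.8, 6.87, 12.8 and 9.99 CPM in BAC, and at 11.4, 9.86, 9.35 and 6.68 CPM in BPAC. With 4-HT it was at 31.2 and 24.7 CPM in AC, at 34.5, 20.9, 32.8 and 25.9 CPM in PAC, at 41.3, 32.8, 43.5 and 33.7 CPM in BAC, and at 40.5, 41.1, 35.1 and 36.6 CPM in BPAC. The lowest 4-HT value, in PAC culture 2, was above the highest EtOH value, in BAC culture 3, and the gene rose in 14 of 14 cultures. Tcf7 rose on the log2 scale by 1.56 ± 0.25 (SE) in AC with n = 2 per arm (adjusted p = 0.000305 by edgeR). With n = 4 per arm it rose by 1.50 ± 0.17 (PAC), 1.90 ± 0.18 (BAC) and 2.04 ± 0.18 (BPAC), with adjusted p values of 2.26e-06, 5.34e-09 and 1.39e-09. In AC the change was 1.23 without culture 1 and 1.88 without culture 2. Each of these fits leaves 1 sample per arm in AC, so the AC call could not be tested on either culture alone.

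Lef1 (ENSMUSG00000027985) is on chromosome 3, positions 131110471 to 131224356 (plus strand), and had the lowest EtOH level of the 4 factors in each genotype, also per length. With EtOH it was at 0.439 and 1.14 CPM in AC, 0.394, 0.523, 0.521 and 0.535 CPM in PAC, 0.372, 0.207, 0.325 and 0.472 CPM in BAC, and 0.321, 0.606, 0.376 and 0.462 CPM in BPAC. These levels rest on 4 to 27 reads per sample. With 4-HT it was at 2.48 and 1.44 CPM in AC, 2.75, 2.32, 1.98 and 2.81 CPM in PAC, 1.87, 2.55, 2.31 and 1.26 CPM in BAC, and 1.04, 3.31, 1.17 and 1.99 CPM in BPAC, from 36 to 99 reads. The arms did not overlap within any genotype, and Lef1 rose in 14 of 14 cultures, least in AC culture 2 (0.32 on the log2 scale). By edgeR it passed the test in PAC (2.32 ± 0.37), BAC (2.50 ± 0.38) and BPAC (2.05 ± 0.37), with adjusted p values of 5.29e-05, 6.48e-06 and 5.29e-05. In AC it was 1.32 ± 0.49 (adjusted p = 0.0667).

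Tcf7l2 (ENSMUSG00000024985) is on chromosome 19, positions 55741820 to 55933654 (plus strand). With EtOH it was at 159.5 and 168.5 CPM in AC, 147.3, 155.7, 176.2 and 168.6 CPM in PAC, 170.4, 197.8, 172.8 and 179.7 CPM in BAC, and 179.0, 285.5, 149.1 and 169.3 CPM in BPAC. With 4-HT it was at 107.8 and 104.4 CPM in AC, 87.3, 95.3, 86.3 and 103.5 CPM in PAC, 85.9, 103.2, 88.6 and 109.2 CPM in BAC, and 80.6, 118.2, 74.8 and 94.6 CPM in BPAC. Every 4-HT value was below every EtOH value, and BPAC culture 2 was the highest sample of both arms. Tcf7l2 fell on the log2 scale by 0.80 ± 0.15 (PAC), 0.90 ± 0.15 (BAC) and 1.09 ± 0.15 (BPAC), with adjusted p values of 0.000282, 2.37e-05 and 1.55e-06 by edgeR. In AC the change was -0.63 ± 0.21 (adjusted p = 0.0439), and with the culture as a replicate block it passed the threshold of 0.01 (-0.63 ± 0.11, adjusted p = 0.000773).

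Tcf7l1 (ENSMUSG00000055799) is on chromosome 6, positions 72626378 to 72789254 (minus strand), and differed between donors. With EtOH it was at 1.64 and 1.77 CPM in AC, 2.90, 2.57, 5.45 and 6.49 CPM in PAC, 3.19, 3.93, 4.47 and 4.87 CPM in BAC, and 7.81, 17.4, 2.30 and 1.81 CPM in BPAC. With 4-HT it was at 1.98 and 0.935 CPM in AC, 1.42, 1.96, 1.42 and 1.81 CPM in PAC, 1.39, 1.77, 1.85 and 3.15 CPM in BAC, and 3.02, 5.31, 0.904 and 1.49 CPM in BPAC. Both cultures of the first BPAC donor were above both cultures of the second donor in each arm, so the arms overlapped in BPAC although all 4 cultures went down. The log2 changes of AC, PAC, BAC and BPAC were -0.21 ± 0.81, -1.40 ± 0.55, -1.02 ± 0.54 and -1.46 ± 0.53, and none passed the threshold of 0.01 in edgeR (adjusted p = 0.900, 0.0493, 0.115 and 0.0228). With the culture as a replicate block, which takes out the differences between donors, it passed in PAC (-1.33 ± 0.27, adjusted p = 0.000870), BAC (-1.05 ± 0.26, adjusted p = 0.00245) and BPAC (-1.23 ± 0.27, adjusted p = 0.000706), and not in AC (-0.27 ± 0.41, adjusted p = 0.666), where culture 1 went up by 0.27 and culture 2 changed by -0.87.

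**Figure D1:**
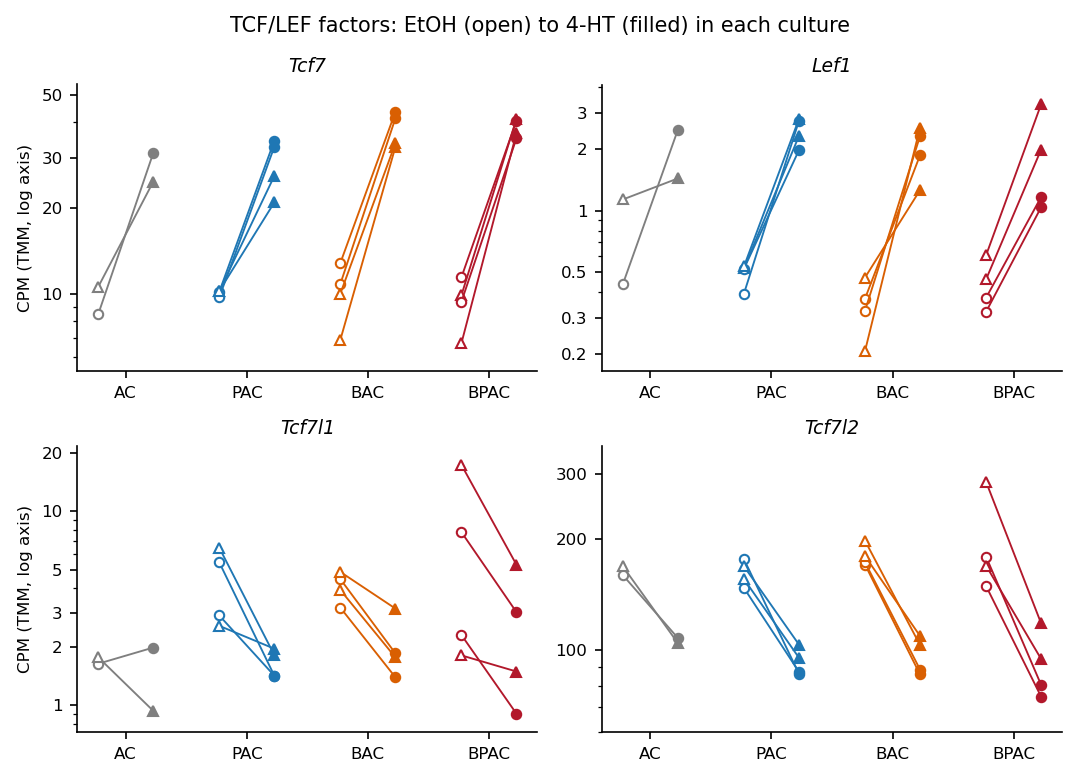
Levels of the 4 TCF/LEF genes in CPM on log axes; each line joins the EtOH sample (open) and the 4-HT sample (filled) of 1 culture, with circles for duplicate 1 and triangles for duplicate 2. Tcf7 and Lef1 go up and Tcf7l2 goes down in all 14 cultures, and Tcf7l1 spans 1.81 to 17.4 CPM among the EtOH-treated BPAC cultures.

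Levels of different genes were compared per length, as CPM per kilobase of each gene's combined exons, and each factor was expressed as a percent of the sum of the 4. With EtOH, Tcf7l2 made up 81.9% ± 1.7 (SD) of the sum in AC, 78.7% ± 1.0 (PAC), 80.6% ± 4.0 (BAC) and 80.6% ± 4.2 (BPAC), and Tcf7 made up 15.8% ± 1.5, 16.4% ± 1.6, 15.2% ± 3.8 and 13.4% ± 3.7. With 4-HT the share of Tcf7l2 was 52.0% ± 3.9 (AC), 48.2% ± 6.8 (PAC), 42.2% ± 5.8 (BAC) and 40.1% ± 3.6 (BPAC), and that of Tcf7 was 45.5% ± 3.0, 48.6% ± 7.4, 54.9% ± 6.3 and 56.6% ± 4.6. In PAC cultures 2 and 4 alone, the shares with 4-HT were 55.5% and 52.6% for Tcf7l2 and 40.7% and 44.0% for Tcf7. Lef1 went from 0.154% to 0.386% (means of the 4 groups) with EtOH to 0.793% to 1.27% with 4-HT, and Tcf7l1 was at 1.90% to 5.78% and 1.56% to 2.48%. On this scale the mean share of Tcf7 was below that of Tcf7l2 in AC and above it in BAC and BPAC after 4-HT. The order of these 2 genes depended on the length used. With the longest annotated transcript in place of the combined exons, Tcf7 went from 7.87%, 8.32%, 7.64% and 6.72% to 27.6%, 30.4%, 36.1% and 37.7% in AC, PAC, BAC and BPAC, and Tcf7l2 kept the larger share with 4-HT (70.0%, 66.3%, 61.1% and 59.1%). Counts per gene do not separate isoforms, and both Tcf7 and Lef1 are known to have shorter forms that start inside the gene and lack the part that binds β-catenin.

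**Figure D2:**
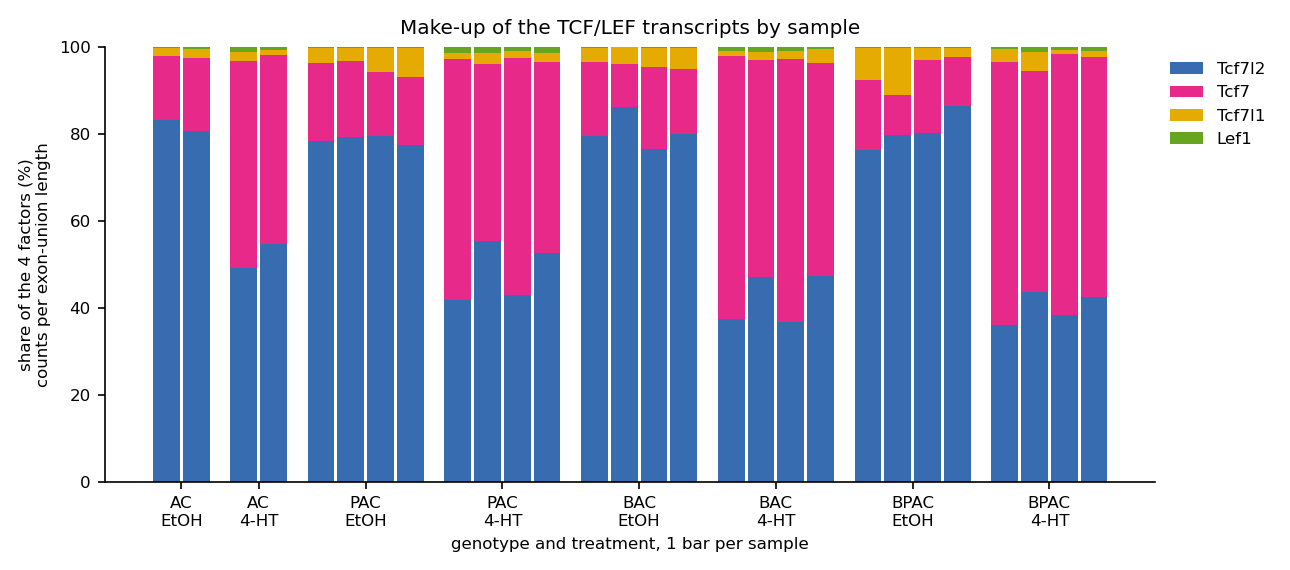
Share of each TCF/LEF gene in the sum of the 4, in percent of counts per combined exon length, with 1 stacked bar per sample. Tcf7l2 fills 76.2% to 86.3% of each EtOH bar and 36.0% to 55.5% of each 4-HT bar.

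The co-activators moved less. Bcl9 (ENSMUSG00000038256, chromosome 3 from 97203662 to 97297917, minus strand) and its paralogue Bcl9l (ENSMUSG00000063382, chromosome 9 from 44482825 to 44511896, plus strand) link β-catenin to the PYGO proteins. Bcl9 was at 13.4 and 12.7 CPM with EtOH and 16.6 and 15.1 CPM with 4-HT in AC, at 13.0, 17.8, 15.8 and 12.7 CPM against 14.1, 15.5, 14.8 and 13.9 CPM in PAC, at 12.2, 15.5, 9.71 and 10.4 CPM against 10.7, 12.9, 10.3 and 9.35 CPM in BAC, and at 13.2, 18.1, 14 and 16.0 CPM against 8.75, 15.1, 9.83 and 12.1 CPM in BPAC. Bcl9 was lower with 4-HT in all 4 BPAC cultures and higher in both AC cultures. The log2 change was 0.28 ± 0.23 (AC), -0.02 ± 0.16 (PAC), -0.14 ± 0.16 (BAC) and -0.42 ± 0.16 (BPAC), and none passed the edgeR test (adjusted p = 0.433, 0.923, 0.475 and 0.0283). With the culture as a replicate block it passed in BPAC (-0.44 ± 0.09, adjusted p = 0.000669).

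Bcl9l was at 10.1 to 19.1 CPM with EtOH and at 14.5 to 20.1 CPM with 4-HT over all samples and went up in 12 of 14 cultures, the exceptions being PAC culture 2 and BPAC culture 2. Its log2 change was 0.47 ± 0.23 (AC), 0.41 ± 0.16 (PAC), 0.41 ± 0.16 (BAC) and 0.20 ± 0.16 (BPAC), with adjusted p values of 0.174, 0.0544, 0.0376 and 0.309 in edgeR.

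Pygo2 (ENSMUSG00000047824, chromosome 3 from 89430214 to 89435128, plus strand) encodes a reader of methylated histone H3 that completes this chain. It was at 66.8 to 89.3 CPM with EtOH and at 80.8 to 109.6 CPM with 4-HT. In BAC it was at 85.2, 67.9, 80.8 and 74.3 CPM with EtOH and at 96.9, 96.4, 102.7 and 101.5 CPM with 4-HT, so that the arms did not overlap. The BAC change of 0.37 ± 0.09 on the log2 scale passed the edgeR test (adjusted p = 0.00212) but not without culture 2 (0.33, adjusted p = 0.0169) or without culture 4 (0.34, adjusted p = 0.0175). The change was 0.22 ± 0.13 in AC (adjusted p = 0.290), 0.29 ± 0.09 in PAC (adjusted p = 0.0177) and 0.28 ± 0.09 in BPAC (adjusted p = 0.0130). BPAC culture 2 was the only culture in which Pygo2 went down (-0.14), and without it the BPAC change passed (0.42, adjusted p = 0.000632).

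The co-repressors Tle1 and Tle3 encode Groucho-type proteins, which bind TCF/LEF factors and recruit histone deacetylases. Tle3 (ENSMUSG00000032280, chromosome 9 from 61372366 to 61418497, plus strand) was at 43.7 and 46.5 CPM with EtOH and 59.5 and 57.5 CPM with 4-HT in AC, and at 40.6, 46.8, 33.1 and 31.5 CPM against 54.5, 58.2, 57.1 and 61.7 CPM in PAC. It was at 29.2, 31.2, 31.7 and 32.8 CPM against 44.2, 45.1, 54.8 and 45.1 CPM in BAC, and at 32.5, 46.8, 36.9 and 40.8 CPM against 50.1, 47.6, 52.5 and 48.2 CPM in BPAC. The arms did not overlap in any genotype, and Tle3 was higher with 4-HT in 14 of 14 cultures, least in BPAC culture 2 (0.02 on the log2 scale). The change passed in PAC (0.61 ± 0.11, adjusted p = 0.000179) and BAC (0.60 ± 0.11, adjusted p = 6.75e-05) by edgeR. It was 0.37 ± 0.15 in AC (adjusted p = 0.0961) and 0.34 ± 0.11 in BPAC (adjusted p = 0.0110), which passed with the culture as a replicate block (0.35 ± 0.11, adjusted p = 0.00964) and without culture 2 (0.45, adjusted p = 0.00265).

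Tle1 (ENSMUSG00000008305, chromosome 4 from 72117142 to 72200919, minus strand) separated BAC and BPAC from the other 2 genotypes with 4-HT, while their ranges overlapped with EtOH. With EtOH it was at 102.5 and 84.5 CPM in AC, 109.6, 99.0, 138.2 and 88.3 CPM in PAC, 121.6, 94.1, 125.7 and 90.0 CPM in BAC, and 143.7, 120.1, 104.6 and 90.3 CPM in BPAC. With 4-HT it was at 99.2 and 82.8 CPM in AC, 114.6, 85.3, 113.1 and 88.2 CPM in PAC, 141.9, 128.3, 154.6 and 131.2 CPM in BAC, and 151.8, 122.2, 153.5 and 139.2 CPM in BPAC. All 8 cultures with the Braf allele went up and 5 of 6 without it went down, the exception being PAC culture 1 (0.06 on the log2 scale after scaling with TMM). The arms overlapped in AC, PAC and BPAC and not in BAC. The log2 change was -0.04 ± 0.21 (AC), -0.12 ± 0.15 (PAC), 0.37 ± 0.15 (BAC) and 0.31 ± 0.15 (BPAC), and none passed the edgeR test (adjusted p = 0.931, 0.571, 0.0420 and 0.0856). With the culture as a replicate block it passed in BAC (0.38 ± 0.10, adjusted p = 0.00267) and BPAC (0.32 ± 0.10, adjusted p = 0.00790). Scaling by library size alone, without the TMM factors, raised the median log2 change of all genes to 0.23 (AC), 0.20 (PAC), 0.13 (BAC) and 0.18 (BPAC). On that scale Tle1 changed by 0.18 in AC and 0.11 in PAC and Bcl9 by 0.21 in PAC and 0.03 in BAC, so the signs of these small changes depended on the scaling.

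**Figure D3:**
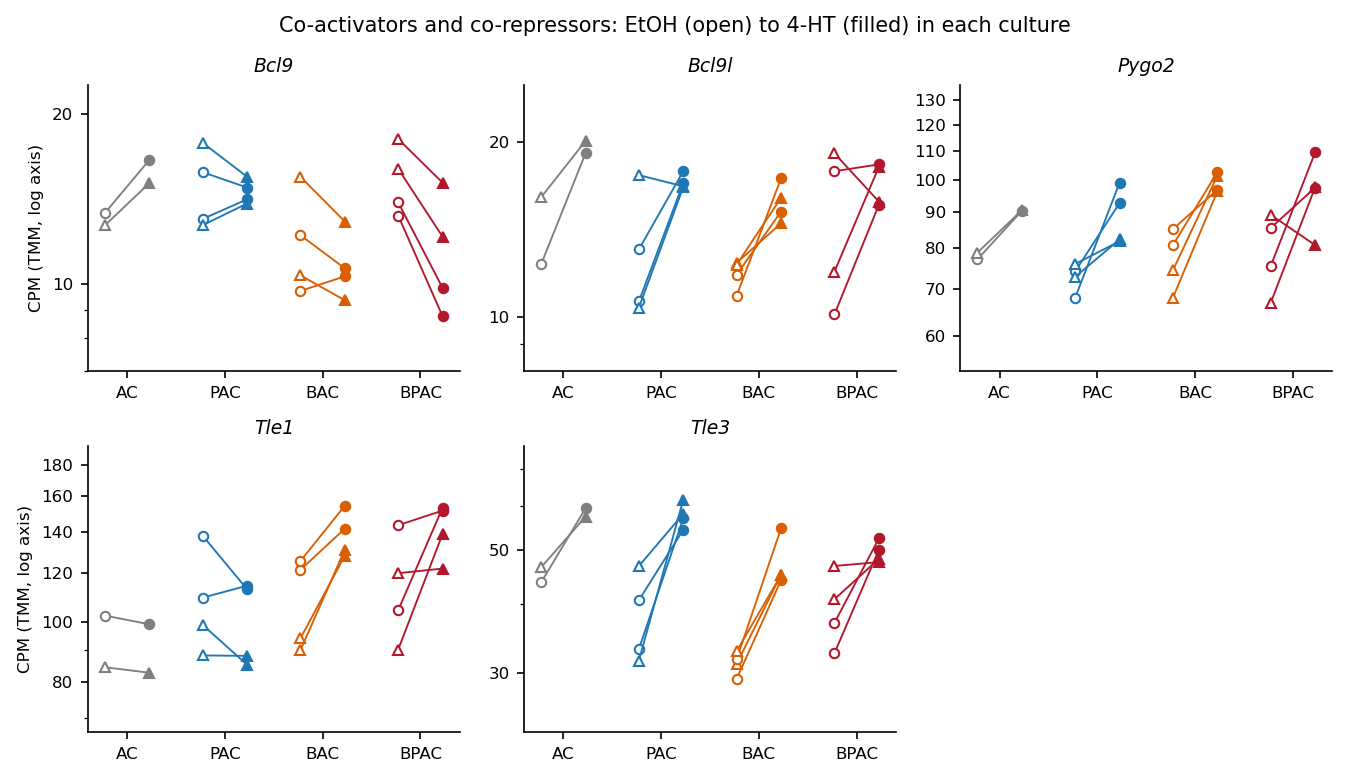
Levels of the 5 cofactor genes in CPM on log axes, drawn as for the TCF/LEF genes (open EtOH, filled 4-HT, circles duplicate 1, triangles duplicate 2). Tle3 is higher with 4-HT in all 14 cultures, and the 4-HT points of Tle1 lie at 122.2 to 154.6 CPM in BAC and BPAC against 82.8 to 114.6 CPM in AC and PAC.

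The counts of called genes were read against the share of all genes that passed the same test. In AC 1 of the 9 genes passed (Tcf7, up), where 7.25% of all genes did. In PAC 4 passed (Tcf7, Lef1 and Tle3 up, Tcf7l2 down), against 23.4%. In BAC 5 passed (Tcf7, Lef1, Pygo2 and Tle3 up, Tcf7l2 down), against 41.9%, and in BPAC 3 passed (Tcf7 and Lef1 up, Tcf7l2 down), against 45% of all genes. The counts in BAC and BPAC are near what those shares would give for any 9 genes, so in this fit the count itself is no feature of the group there. With the culture as a replicate block, 7 of the 9 passed in each of BAC and BPAC, where 7017 and 7358 of all 13519 genes did. Tcf7 held ranks 98 to 168 and Lef1 ranks 42 to 198 by log2 change among the 13519 genes in the 4 genotypes, where rank 1 is the largest rise. The other 7 genes held ranks from 1256 (Tle3 in PAC) to 13209 (Tcf7l1 in PAC). The median log2 change of the 9 genes was 0.28 (AC), 0.29 (PAC), 0.37 (BAC) and 0.28 (BPAC), while the median of all genes was 0.01, -0.03, -0.04 and -0.04. With library size alone, which raised the median of all genes, 2 of the 9 rose in AC, PAC had 5, BAC 6 and BPAC 5 that rose, and the 1 gene that fell in each of the last 3 was Tcf7l2. Of all 13519 genes, 1511, 3388, 3881 and 4331 rose on that scale in AC, PAC, BAC and BPAC.

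Without both duplicate 1 cultures, 2 samples per arm remained in PAC, and the edgeR test called 48 of all 13519 genes and 0 of the 9 (4 at an unadjusted p under 0.05). The log2 changes there were 1.20 for Tcf7 (adjusted p = 0.0118), 2.27 for Lef1 (adjusted p = 0.0261), -0.71 for Tcf7l2 (adjusted p = 0.0671) and 0.62 for Tle3 (adjusted p = 0.0323). With the 2 doubtful PAC samples counted as 1, the same 4 genes passed, at 1.42 for Tcf7 (adjusted p = 2.20e-05), 2.34 for Lef1 (adjusted p = 0.000190), -0.77 for Tcf7l2 (adjusted p = 0.00170) and 0.62 for Tle3 (adjusted p = 0.000601).

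**Figure D4:**
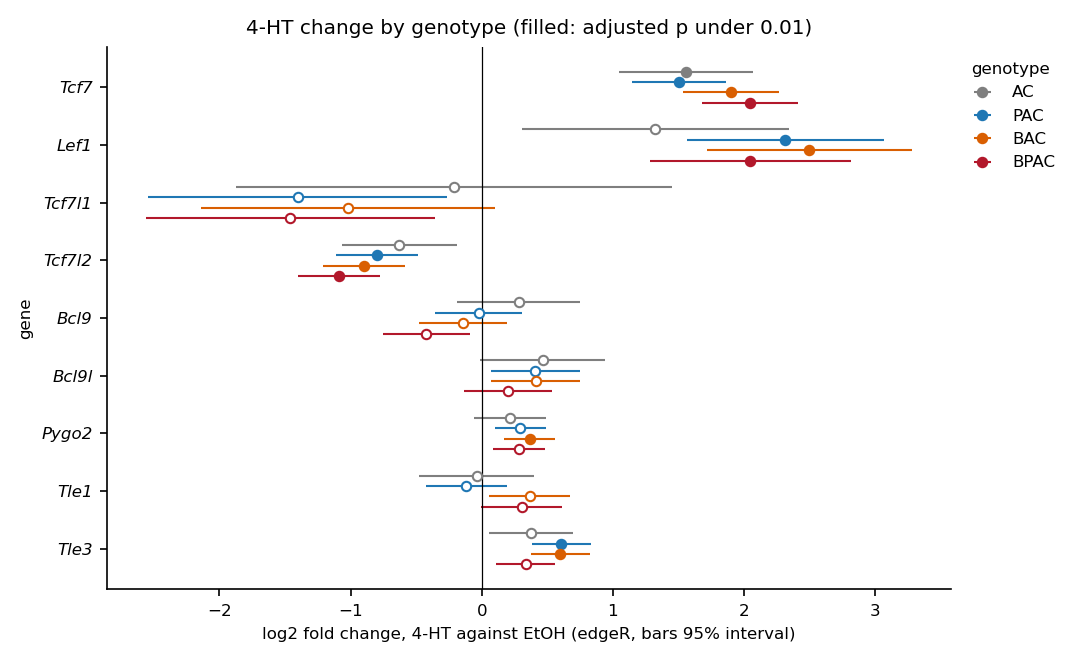
Log2 fold change with 4-HT against EtOH for the 9 genes in each genotype, with 95% intervals from edgeR; filled points passed the threshold of 0.01. The Tcf7 intervals lie between 1.05 and 2.41 in the 4 genotypes, and those of Bcl9 reach from -0.76 to 0.75.

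To ask whether the response depended on the Braf allele, the average 4-HT change of AC and PAC was subtracted from that of BAC and BPAC. Of the 9 genes, 0 passed in edgeR (3 at an unadjusted p under 0.05, and 0 past the threshold in limma-voom and in DESeq2), where 6.61% of all genes did. The difference was 0.41 for Tle1 (95% interval 0.07 to 0.76, adjusted p = 0.0993), -0.41 for Bcl9 (-0.78 to -0.04, adjusted p = 0.129) and 0.44 for Tcf7 (0.04 to 0.84, adjusted p = 0.128). With the culture as a replicate block the difference passed for Tle1 (0.42 ± 0.11, adjusted p = 0.00870) and Bcl9 (-0.42 ± 0.11, adjusted p = 0.00802) and not for Tcf7 (0.47 ± 0.15, adjusted p = 0.0337). Within duplicate 1 the difference for Tle1 was 0.37 and within duplicate 2 it was 0.47, and for Bcl9 it was -0.46 and -0.37. That for Tcf7 was 0.04 within duplicate 1 and 0.89 within duplicate 2, where the PAC and AC cultures rose by 1.03 to 1.34 and the BAC and BPAC cultures by 1.75 to 2.44. For Tcf7l2 the difference was -0.28 (-0.63 to 0.07), for Pygo2 0.07 (-0.15 to 0.29) and for Tle3 -0.02 (-0.27 to 0.23). Without both duplicate 1 cultures of PAC, 0 of the 9 passed as well (2 at an unadjusted p under 0.05), with 0.59 for Tcf7, 0.41 for Tle1 and -0.40 for Bcl9 (adjusted p = 0.0586, 0.0981 and 0.229).

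**Figure D5:**
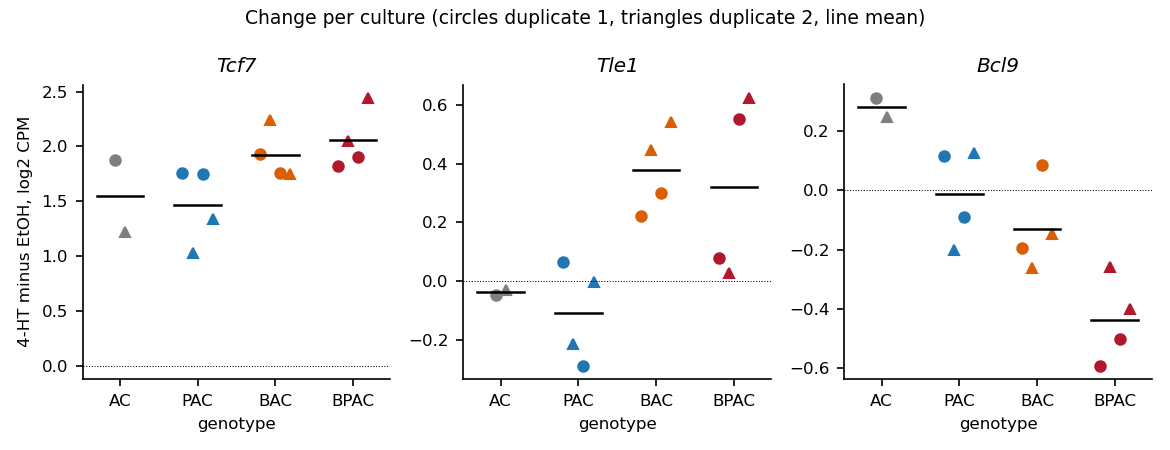
Change of Tcf7, Tle1 and Bcl9 in each culture, as 4-HT minus EtOH on the log2 CPM scale; circles are duplicate 1, triangles duplicate 2 and lines the mean of a genotype. Tle1 changes by 0.03 to 0.62 with the Braf allele and by -0.29 to 0.06 without it, and Bcl9 by -0.59 to 0.09 and -0.20 to 0.31.

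The levels with 4-HT were also compared between genotypes. Tle1 was 1.47-fold higher with the Braf allele (log2 difference 0.55 ± 0.12, adjusted p = 0.000698) and Bcl9 was lower (-0.45 ± 0.13, adjusted p = 0.00539) by edgeR, so 2 of the 9 genes passed where 30.2% of all genes did. The 8 samples with the allele held 122.2 to 154.6 CPM of Tle1 and the 6 without it held 82.8 to 114.6 CPM, with no overlap. Within duplicate 1 the Tle1 difference was 0.50 (adjusted p = 0.00432) and within duplicate 2 it was 0.62 (adjusted p = 0.00463). Without AC culture 2 it was 0.49 (adjusted p = 0.0127). Bcl9 was less stable, at -0.65 within duplicate 1 (adjusted p = 0.00113) and -0.28 within duplicate 2 (adjusted p = 0.321), and it was above the threshold when any of 7 single cultures was left out (adjusted p = 0.0101 to 0.0373). Tcf7 was higher by 0.43 ± 0.13 (adjusted p = 0.0117) and Tle3 lower by 0.26 (log2 difference -0.26 ± 0.09, adjusted p = 0.0144), which did not pass. Both passed in limma-voom (adjusted p = 0.00296 and 0.00949) and with the duplicate number as a covariate. Without both duplicate 1 cultures of PAC the difference was 0.66 for Tle1 (adjusted p = 0.000177), 0.57 for Tcf7 (adjusted p = 0.00321) and -0.46 for Bcl9 (adjusted p = 0.0159). With the 2 doubtful PAC samples counted as 1, the Tcf7 difference passed as well (0.47, adjusted p = 0.00807).

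With EtOH, before recombination, the Braf genotypes differed from the other 2 in 0 of the 9 genes by edgeR (3 at an unadjusted p under 0.05, and 0 past the threshold in limma-voom and DESeq2), where 0.0296% of all genes did. The largest of these differences was 1.01 ± 0.44 for Tcf7l1 (adjusted p = 0.245), which includes the high levels of the first BPAC donor. When both duplicate 1 cultures of PAC were left out, 0 of the 9 passed in edgeR as well (2 at an unadjusted p under 0.05). For Tle1 it was 0.14 (95% interval -0.11 to 0.39), below the difference seen with 4-HT. The Trp53 allele, for which the average 4-HT change of AC and BAC was subtracted from that of PAC and BPAC, gave 0 of 9 calls in edgeR, limma-voom and DESeq2 (0 at an unadjusted p under 0.05 in each), where 0.0148% of all genes passed. The difference was 0.04 for Tcf7 (95% interval -0.35 to 0.44), 0.27 for Lef1 (-0.57 to 1.11), -0.18 for Tcf7l2 (-0.53 to 0.16) and -0.81 for Tcf7l1 (-2.09 to 0.46). Without both duplicate 1 cultures of PAC it gave 0 calls in edgeR as well (0 at an unadjusted p under 0.05). AC came from 1 donor, so its 2 cultures carry a large part of both allele comparisons.

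Of 30 other genes of the nuclear complex, 29 were among the counted genes (Pygo1 was not). In AC 5 rose and 0 fell, in PAC 7 rose and 2 fell, while BAC and BPAC each had 8 that rose and 5 that fell. With library size alone AC had 7 that rose and PAC 10, and 0 fell in either, so the direction of calls in this list moved with the scaling. The median log2 change was 0.04, -0.00, 0.05 and -0.05 in the same order, close to that of all genes. The share of the 29 that passed in BAC and BPAC is near the 41.9% and 45% of all genes given above, and the 5 in AC and 9 in PAC stand against 7.25% and 23.4%. With the culture as a replicate block, 5 rose and 1 fell in AC, PAC had 8 and 3, and BAC and BPAC had 10 and 7 each. Of all 13519 genes, 2223, 4717, 7017 and 7358 passed with the block in AC, PAC, BAC and BPAC. Ctnnb1, which encodes β-catenin itself, changed by -0.19 ± 0.14 (AC), -0.13 ± 0.10 (PAC), 0.01 ± 0.10 (BAC) and -0.19 ± 0.10 (BPAC), and none passed (adjusted p = 0.367, 0.296, 0.953 and 0.0926). Ruvbl1 and Ruvbl2, which encode paired ATPases that bind β-catenin, rose in all 4 genotypes, Ruvbl1 by 0.75, 0.85, 1.33 and 1.33 and Ruvbl2 by 0.70, 0.86, 1.07 and 1.19 on the log2 scale. Hdac2, which encodes a histone deacetylase, rose by 0.60, 0.50, 0.85 and 0.99.

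The TLE family was split. Tle4 fell on the log2 scale by 0.46 ± 0.11 (PAC), 0.60 ± 0.11 (BAC) and 0.76 ± 0.11 (BPAC), with adjusted p values of 0.00176, 5.94e-05 and 2.25e-06. With library size alone the PAC change did not pass (-0.24, adjusted p = 0.0908). Tle5, a short family member that lacks the repressor domains, fell in the same genotypes by 0.36, 0.60 and 0.73 (adjusted p = 0.00830, 3.14e-05 and 1.84e-06), and its PAC change did not pass with library size alone either (-0.13, adjusted p = 0.307). Both genes passed in BAC and BPAC on that scale. Tle2 fell only in BAC among the 4 tests (-1.30 ± 0.34, adjusted p = 0.00241), and a difference between genotypes was not tested for PAC against BAC. Tle6 changed by 0.04 ± 0.54 (AC), -0.22 ± 0.37 (PAC), 0.60 ± 0.36 (BAC) and 0.80 ± 0.36 (BPAC), and none passed (adjusted p = 0.970, 0.676, 0.159 and 0.0595), although BPAC did with the replicate block (0.87 ± 0.24, adjusted p = 0.00429). Its 4-HT level was higher with the Braf allele (log2 difference 1.45 ± 0.30, adjusted p = 0.000434). Hipk2, which encodes a kinase known to phosphorylate TCF/LEF proteins, fell in BAC (-0.87 ± 0.11) and BPAC (-1.13 ± 0.11). By edgeR, the 4-HT change differed with the Braf allele for Hipk2 (-0.82 ± 0.12, adjusted p = 9.24e-05), Ruvbl1 (0.53 ± 0.11, adjusted p = 0.00223) and Hdac2 (0.37 ± 0.09, adjusted p = 0.00575). Of these, Hdac2 did not pass with library size alone (0.34, adjusted p = 0.0259). The genotypes with and without the allele come from different donors. All 3 passed without both duplicate 1 cultures of PAC (-0.88, 0.64 and 0.46, adjusted p = 0.000224, 0.00100 and 0.00213). In the fit with the replicate block, Tle4 (-0.33, adjusted p = 0.00685) and Ctnnbip1, which encodes an inhibitor of β-catenin binding to TCF factors (-0.52, adjusted p = 0.000654), passed in addition, so 5 of the 29 passed against 3. Of all 13519 genes, 1891 passed with the block and 893 without it. Without both duplicate 1 cultures, 0 of the 29 genes passed in PAC by edgeR (7 at an unadjusted p under 0.05), where 48 of all 13519 genes did. With the 2 doubtful samples counted as 1, 6 rose and 1 fell, where 1083 and 1176 of all genes did.

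All 16 genes of a list of known Wnt targets were counted, and AC showed a rise of 8, PAC and BPAC of all 16 and BAC of 15, with 0 falling in any genotype. Of all genes, 3%, 11.2%, 20.3% and 22% rose in AC, PAC, BAC and BPAC. With library size alone and with the replicate block 12 rose in AC. Their median log2 change was 1.37, 1.24, 1.37 and 1.46, so Tcf7 and Lef1 rose by at least as much as the median target in 4 and 3 genotypes, respectively. In PAC 2 rose by edgeR without both duplicate 1 cultures, where 22 of all 13519 genes rose. In that fit 14 of the 16 had an unadjusted p under 0.05, and their median log2 change was 0.98. With the 2 doubtful samples counted as 1, 13 rose, where 1083 of all genes did. The effect of the Braf allele on the response passed for 0 of the 16 in edgeR (4 at an unadjusted p under 0.05), and for 0 without both duplicate 1 cultures of PAC (6 at an unadjusted p under 0.05). Of 7 proliferation genes, AC had 2 that rose, PAC 5, BAC 6 and BPAC 7, above the same background in each. Both the replicate block and library size alone gave AC 5 and the others 7 each. For the Braf allele and the 4-HT change 1 passed, and 4 with the replicate block, where 893 and 1891 of all 13519 genes did. In PAC, edgeR called 0 without both duplicate 1 cultures (5 at an unadjusted p under 0.05) and 5 with the 2 doubtful samples counted as 1. Their summed level was 593.9 to 796.6 CPM with EtOH, 938.2 to 1103 CPM with 4-HT in AC and PAC, and 1306 to 1527 CPM with 4-HT in BAC and BPAC. This level was higher with 4-HT in all 4 genotypes, as was Tcf7, and with 4-HT it was higher in BAC and BPAC, as was Tle1, and its part in those results was not tested.

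Over the 28 samples, the genes whose log2 CPM was most like that of Tcf7 were Cdca7 (Pearson's r 0.982), Clic4 (0.975) and Hes6 (0.972). For Lef1 they were Ascl2 (0.900), Ripor2 (0.889) and Sp5 (0.888), of which Ascl2 and Sp5 are on the list of Wnt targets. For Tcf7l2 they were Iqgap2 (0.984), Parm1 (0.980) and Endod1 (0.980), and for Tcf7l1 they were Cs (0.873), Fhl1 (0.871) and Arhgap17 (0.864). All points share the split between the 2 arms, so these values describe likeness in the same 28 libraries and carry no test.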

How the data were processed

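RNA-seq was analysed for 28 colon organoid samples (7 donors, 14 cultures, EtOH and 4-HT). The authors deposited raw counts, whole numbers of reads per gene without normalization, from reads trimmed with Trimmomatic (version 0.39) and aligned to GRCm38 with STAR (version 2.5.2b), per the submitters' processing notes. The counting program and its strand setting are not given in the sources used here, so reads of overlapping or antisense genes cannot be told apart. Ensembl identifiers were matched to symbols and lengths in the GENCODE annotation of GRCm38. Groups, donors and duplicates came from the labels. The label that lacks a duplicate number was taken as duplicate 1.

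After TMM scaling, the quasi-likelihood test of edgeR (version 4.0.16, R 4.3.3) was fitted to all samples, with each genotype and treatment as a group (8 groups) and a spread common to them. Benjamini-Hochberg adjustment covered all 13519 genes, and the threshold was 0.01, as in the study. Limma-voom (limma 3.58.1), DESeq2 1.42.0, other scalings, filters, thresholds, the culture as a replicate block, summed donors, single duplicates and cultures left out were run as alternatives, and the 2 doubtful PAC samples counted as 1 were added after seeing the data. The EtOH and 4-HT samples of a culture were paired by donor and duplicate in the labels. In 12 cultures tested, their deviations from the group means correlated at 0.42 on average (0.25 to 0.53). Changes per culture used log2 CPM with a prior count of 2.

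The 9 genes and the lists were chosen with earlier results of these data known. All 9 genes are named, the lists by counts, and for each TCF/LEF factor the 3 genes with the highest correlation. Duplicates are cultures of 1 donor, so p values measure mainly the spread between cultures. Totals of 20577276 to 40068718 counts set the precision, and counts carry no molecular identifiers. Promoter windows are from RefSeq (GRCm38.p6). Figures were drawn with Python 3.11.15.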

Additional observations from a re-analysis of the deposited data

Results flagged for a closer look

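In 4 of 81 groups of 4 values tested, the highest or lowest value stood farther from its nearest neighbour than Dixon's 95% critical value allows, about as many as chance gives, since chance marks about 1 in 20 groups. Tcf7 with EtOH was at 9.70 CPM in PAC culture 3, against 10.1 to 10.2 CPM in the other PAC cultures, a gap that is small in CPM because the others lie so close together. Lef1 with EtOH was at 0.394 CPM in PAC culture 1, against 0.521 to 0.535 CPM in the others, and rested on 11 reads. The Tcf7l2 change from EtOH to 4-HT was -1.03 on the log2 scale in PAC culture 3, against -0.75 to -0.70 in the others. That culture's 4-HT sample is 1 of the 2 PAC samples that hold Xist and Y-linked reads together. Tle3 with 4-HT was at 54.8 CPM in BAC culture 3, against 44.2 to 45.1 CPM in the others.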

How the results depend on the processing

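The number of the 9 genes called under other settings moved as follows. In AC it was 1, and 2 with a threshold of 0.05, with library size alone or with the culture as a replicate block. No AC count is given for 1 duplicate alone or with a culture left out, because 1 sample per arm remains. In PAC it was 4, 6 with a threshold of 0.05 or library size alone, 5 with the replicate block, duplicate 1 alone or the duplicate number as a covariate, and 0 with duplicate 2 alone or without both duplicate 1 cultures. In BAC it was 5, 7 with a threshold of 0.05, library size alone or the replicate block, 6 with summed donors or the covariate, 4 with duplicate 1 alone, 2 with duplicate 2 alone and 4 to 5 with a culture left out. In BPAC it was 3, 7 with a threshold of 0.05 or the replicate block, 6 with library size alone, duplicate 1 alone or the duplicate number as a covariate, 5 with DESeq2, 4 with limma-voom and 3 to 5 with a culture left out. For the Braf allele and the 4-HT change it was 0, 2 with the replicate block and 1 with the duplicate number as a covariate. For the 4-HT level it was 2, 4 with a threshold of 0.05, limma-voom or the covariate, 3 with DESeq2, library size alone or the 2 PAC samples counted as 1, 1 with duplicate 2 alone and 0 to 3 with a culture left out. The replicate block could not be fitted to the level comparisons, because each culture has 1 genotype, and it changed no other call of the 9 genes than those given here and beside the genes. It also raised the number of all genes called from 980, 3166, 5660 and 6089 to 2223, 4717, 7017 and 7358 in AC, PAC, BAC and BPAC, and from 893 to 1891 for the Braf allele and the 4-HT change. Fits with fewer samples called other numbers of all genes. In PAC these were 3968 with duplicate 1 alone, 7 with duplicate 2 alone and 48 without both duplicate 1 cultures. With duplicates 1 and 2 alone they were 5169 and 2839 in BAC and 5868 and 2998 in BPAC. With library size alone, 1511 genes rose and 302 fell in AC against 406 and 574, and 3388 rose and 737 fell in PAC against 1511 and 1655. Signs turned only for changes that did not pass. In AC these were Tcf7l1 (0.0097 with library size alone, 0.26 with duplicate 1 alone, -0.91 to 0.28 with a culture left out) and Tle1 (0.18 with library size alone). In PAC they were Bcl9 (0.21 with library size alone, 0.015 with duplicate 1 alone, -0.068 to 0.043 with a culture left out) and Tle1 (0.11 with library size alone), and in BAC Bcl9 (0.030 with library size alone). For the Braf allele and the 4-HT change they were Lef1 (-0.31 with duplicate 1 alone, -0.13 to 0.95 with a culture left out), Pygo2 (-0.0084 with duplicate 1 alone) and Tle3 (0.012 with summed donors, 0.12 with duplicate 1 alone, -0.066 to 0.034 with a culture left out). For the 4-HT level they were Lef1 (0.22 with duplicate 2 alone, -0.40 to 0.034 with a culture left out) and Tcf7l2 (0.061 with duplicate 2 alone). The cause was not tested. Fewer samples per arm remain where cultures are left out, and 4 to 27 reads limit Lef1 with EtOH.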
